A study of Mus musculus with 6 samples.

Results

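The genes described here are the constitutive proteasome subunits. They were taken as every protein-coding gene whose symbol is Psma, Psmb, Psmc, Psmd or Psme followed by a number. The 3 interferon-inducible catalytic subunits Psmb8, Psmb9 and Psmb10 were left out. The rule used names only and found 40 genes among the 55401 of the count table. They encode 8 alpha and 8 beta ring subunits, 6 ATPases, 3 other subunits of the cap's base, 8 subunits of its lid, 3 chaperones that assemble the cap (Psmd5, Psmd9 and Psmd10) and 4 alternative activators. The cells were ADC106, a single mouse line from an angiosarcoma, which is a malignant tumour of vessel-lining cells. One group received an NC mimic (labelled WT) and the other a miR-497 mimic (labelled miR-497 overexpression), a short synthetic RNA duplex that loads into Argonaute and represses transcripts with a matching seed site. The aim was to map the genes that miR-497 regulates. Both were used at 12.5 nM, RNA was taken on day 3 and enriched for poly(A), and each group had 3 libraries. Cells without a mimic were not analysed here. The labels do not say whether libraries came from separate cultures, so p-values measure the spread between these libraries, which may be technical.

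The proteasome is the large barrel-shaped protease that degrades proteins tagged with ubiquitin. Its core is a stack of rings of alpha subunits, which gate the entrance, and beta subunits, of which Psmb5, Psmb6 and Psmb7 carry the active sites. A regulatory cap recognises ubiquitin chains, strips them off and threads the substrate into the core through a ring of ATPases. Other caps, made by the Psme genes, open the core without using ubiquitin. Dividing cells need the particle to remove cyclins and other cell cycle regulators, and its subunit genes are known to be controlled together, in part through the transcription factor Nfe2l1.

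The sequences that bear on the results are the guide strand of the mimic's namesake and its matches in proteasome transcripts. In RefSeq (GRCm38.p6), mature mmu-miR-497a-5p lies at chr11:70234730-70234751 on the plus strand. The labels do not give the sequence of the mimic itself. In the RefSeq sequence the seed, bases 2 to 8, is in capitals, while in the transcripts the capitals mark the complementary 7mer. The sites lie in annotated 3' UTRs (GENCODE M21, GRCm38), and those of Psmc1, Psmd13, Psme3 and Psmb1 are shown as examples from genes that were lower with miR-497.
mmu-miR-497a-5p: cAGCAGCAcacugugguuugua
Psmc1, UTR base 128, chr12:100123320-100123326, plus strand: cattgtgccgTGCTGCTctctactccc
Psmd13, UTR base 125, chr7:140897924-140897930, plus strand: atcctgaaatTGCTGCTccagcagacg
Psme3, UTR base 1006, chr11:101322878-101322884, plus strand: gtgcagaggcTGCTGCTcctcgctgtg
Psmb1, UTR base 3, chr17:15477231-15477237, minus strand: gaTGCTGCTgaggtcttct
Psmb1, UTR base 336, chr17:15476898-15476904, minus strand: ccttgctttcTGCTGCTgtgtgttcat
Psmb1, UTR base 583, chr17:15476651-15476657, minus strand: cctgaaggaaTGCTGCTtactagcttg

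Libraries held 25777676 to 36159499 counts. Levels are given as CPM, a gene's count relative to its library's TMM-scaled total, and a gene is called when its edgeR quasi-likelihood p, with the Benjamini-Hochberg adjustment over the 14661 tested genes, is under 0.05. All 10 endothelial markers listed for this line were expressed, with a summed 8740 to 9461 CPM in NC and 8733 to 9155 CPM in miR-497 libraries. Singly, 7 were higher and 2 lower, from -0.52 for Pecam1 to 1.03 for Emcn in log2 fold change. Of 6 leukocyte markers, Cd3e and Itgam were at 0 counts in all libraries and only Cd68 was tested, and it was higher with miR-497. The list summed to 8.21, 8.52 and 8.60 CPM in NC libraries and at most 19.8 CPM in miR-497 libraries. The 4 epithelial markers summed to at most 1.12 CPM in any library. The 6 fibroblast and mural markers, of which Dcn was too low to test and 2 were higher and 1 lower, summed to between 279 and 301 CPM in NC and between 437 and 524 CPM in miR-497 libraries. Mitochondrially encoded genes took 2.03% to 2.15% of NC counts and 2.94% to 3.77% of miR-497 counts. The part of these shifts in the proteasome results was not tested.

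Of the 40 genes, 39 passed the filter on low counts and 29 were called, 20 higher and 9 lower with miR-497. Over all genes tested, 49.8% were called, 23.8% higher and 26.0% lower. The share of proteasome genes called higher, 51.3%, was thus above that of all genes, and the 23.1% called lower was near it. These shares are not matched for count level. With only genes of mean count at least 50 tested, 21 of 38 proteasome genes were higher and 9 lower. Of all 11641 such genes, 3404 were higher and 3542 lower. There the share called lower was smaller for proteasome genes than for all genes. The changes were small. The median log2 fold change was 0.15, a rise of 10.7%, against -0.019 for all genes tested, and only Psmd8 passed 2-fold. The 3 miR-497 values lay above all NC values for 19 genes and below for 10, where the same held for 27.8% and 29.6% of all genes tested. Summed over the 40 genes, expression was 7325, 7560.0 and 7486 CPM in NC libraries and 8396, 7909 and 7918 CPM in miR-497 libraries, so the groups did not overlap and the means differed by 8.29%. Library by library, the median of these genes, as log2 CPM minus the NC mean, was between -0.022 and 0.023 in NC, and 0.19, 0.088 and 0.083 in miR-497 libraries 1, 2 and 3. The highest of these, miR-497 library 1, also had the highest mitochondrial share. In bulk RNA, fewer cells of a kind and less RNA per cell cannot be told apart.

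**Figure D1:**
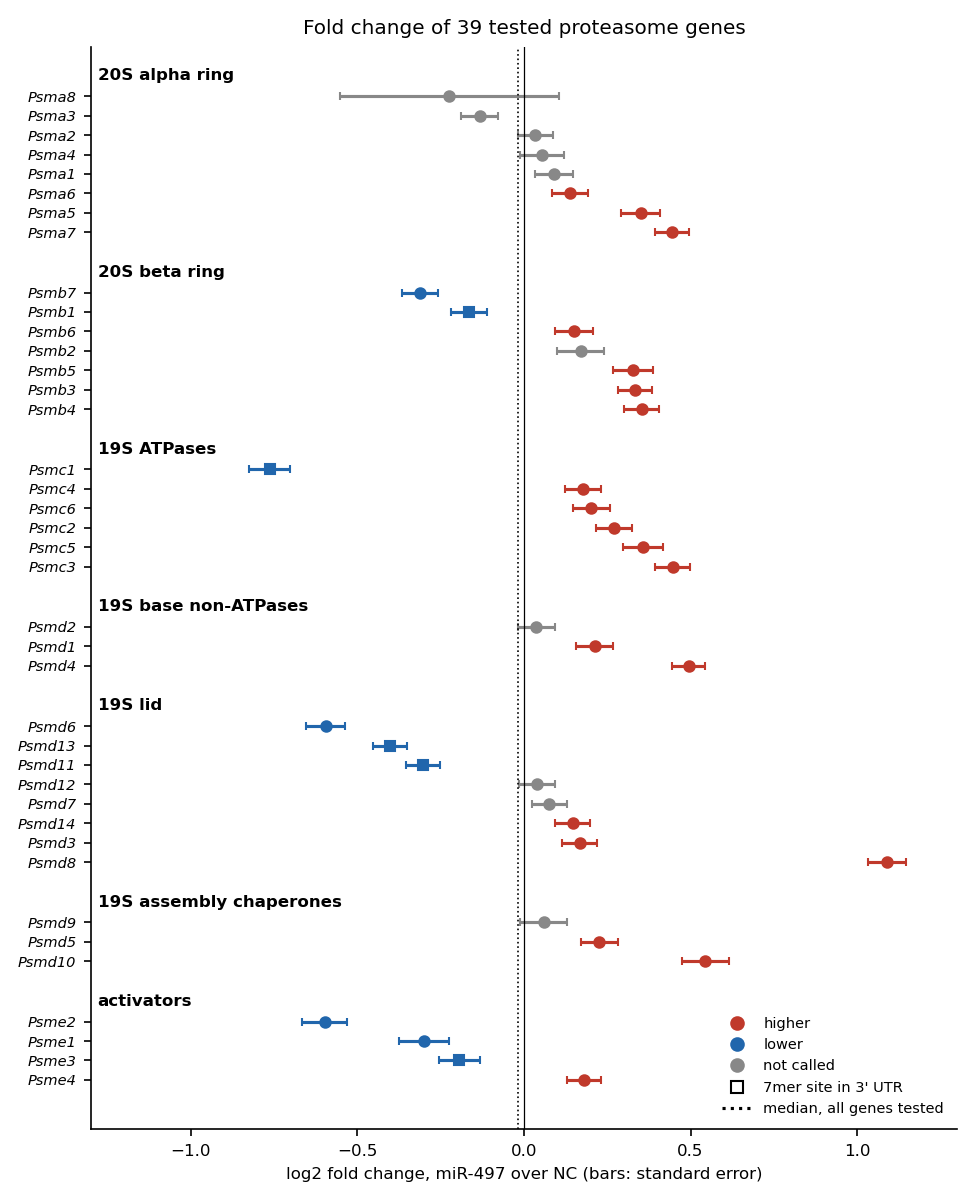
Log2 fold change (x axis) with its standard error for the 39 tested genes, grouped by place in the particle, with called genes in red (higher) and blue (lower), and squares for genes with a 7mer site; 20S names the core and 19S the cap. Most genes of the core and the ATPase ring lie right of 0, while Psmc1, Psmd6, Psmd13 and Psme2 lie on the left and Psmd8 stands alone beyond 1.

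In the core, alpha and beta rings together, 7 of the 15 tested genes rose (46.7%) and 2 fell (13.3%), and summed expression was 7.61% higher with miR-497. Over all genes tested, 23.8% were higher and 26.0% lower, and the counts of each part below are to be read against these shares. The shares are not matched for count level. In the alpha ring, 3 of the 8 genes rose, none fell and 5 were not called. Psma7 (ENSMUSG00000027566), the alpha4 subunit, had 205, 213 and 215 CPM in NC libraries and 286, 279.8 and 295 CPM in miR-497 libraries (log2 fold change 0.45, SE 0.0507, edgeR adjusted p = 1.5e-06). Psma5 (ENSMUSG00000068749), the alpha5 subunit, went from 117, 121 and 110.3 to 157, 138 and 149.9 CPM (log2 fold change 0.35, SE 0.0583, edgeR adjusted p = 8.5e-05). Every miR-497 value of both genes lay above every NC value. For Psma6 (ENSMUSG00000021024), the alpha1 subunit, with 212, 225 and 202 CPM in NC and 241, 226 and 237 CPM with miR-497, the highest NC and the lowest miR-497 value nearly met (log2 fold change 0.14, SE 0.0549, edgeR adjusted p = 0.047). Its call rested on single libraries: the adjusted p was 0.12 without NC library 1, 0.17 without NC library 3, 0.13 without miR-497 library 1 and 0.089 without miR-497 library 3, and 0.29 with GC and length offsets. Psma1, Psma2 and Psma4 had log2 fold changes of 0.034 to 0.091, and Psma3 had -0.13 (edgeR adjusted p = 0.06, and 0.0094 without miR-497 library 1), although its miR-497 values all lay below the NC values. Psma8, the alpha4 variant of testis, was at 32 to 59 counts per library and was not called (log2 fold change -0.22, SE 0.328, edgeR adjusted p = 0.6).

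The beta ring held 4 higher and 2 lower genes of 7 tested. Psmb4 (ENSMUSG00000005779), a beta subunit without an active site, had 151, 149.9 and 149 CPM in NC libraries and 199.9, 179.8 and 195 CPM in miR-497 libraries (log2 fold change 0.35, SE 0.0534, edgeR adjusted p = 3.3e-05). Psmb3 (ENSMUSG00000069744), also without an active site, moved from 225, 224 and 213 to 286, 268 and 279 CPM (log2 fold change 0.33, SE 0.0514, edgeR adjusted p = 4.1e-05). Psmb5 (ENSMUSG00000022193), which carries the chymotrypsin-like site, had 92.0, 106 and 98.1 CPM in NC and 128, 119 and 124 CPM in miR-497 libraries (log2 fold change 0.33, SE 0.0603, edgeR adjusted p = 0.00024). In all 3 the groups were separate, although for Psmb5 a pseudogene, Gm3375, is 98.9% identical over 796 bases and held 341 to 523 counts per library, 12.5% of the mean count of Psmb5, so the split of reads is uncertain. The other catalytic genes went different ways. Psmb6 (caspase-like site) had 256, 277 and 248 CPM in NC and 297, 276 and 295 CPM with miR-497, values that overlap (log2 fold change 0.15, SE 0.0565, edgeR adjusted p = 0.035), and its adjusted p was 0.11 without NC library 1, 0.13 without NC library 3, 0.098 without miR-497 library 1 and 0.081 without miR-497 library 3. Psmb7 (trypsin-like site) fell, from 286, 302 and 296 to 244, 224 and 244 CPM (log2 fold change -0.31, SE 0.0539, edgeR adjusted p = 0.00013), in separate groups, with 11.8% of its exon bases under a gene on the other strand. Psmb1, which has no active site, fell from 302, 292 and 297 to 282, 254 and 258 CPM (log2 fold change -0.17, SE 0.0539, edgeR adjusted p = 0.017), again with separate groups. It lost its call without NC library 2 (0.057), NC library 3 (0.052), miR-497 library 2 (0.094) or miR-497 library 3 (0.053), and with upper quartile scaling (0.057). Psmb2 was not called (edgeR adjusted p = 0.053), but passed without NC library 2 (0.026) or miR-497 library 3 (0.024). Psmb11, the variant of the thymus, was too low to test, with 1 to 11 counts per library.

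The ATPases of the cap, which unfold the substrate, rose in 5 of 6 genes and fell in 1, with a median log2 fold change of 0.24 and a summed expression 16.3% higher. Psmc3 (ENSMUSG00000002102), whose tail docks into the alpha ring to open its gate, had 229, 233 and 235 CPM in NC libraries and 330.5, 304 and 315 CPM in miR-497 libraries (log2 fold change 0.45, SE 0.0517, edgeR adjusted p = 1.8e-06). Psmc5 (ENSMUSG00000020708) had 237, 269.6 and 263 CPM in NC and 347, 314 and 323 CPM in miR-497 libraries (log2 fold change 0.36, SE 0.0601, edgeR adjusted p = 0.0001). In both genes the miR-497 values were all above the NC values. Psmc2, Psmc6 and Psmc4 followed with log2 fold changes of 0.27, 0.20 and 0.18, also without overlap. The adjusted p of Psmc4 was 0.071 without NC library 1 and that of Psmc6 was 0.054 without NC library 2. Psmc1 (ENSMUSG00000021178, chr12:100110154-100123405, plus strand), a partner of these genes in the same ring, went the other way, from 123, 132 and 134 to 82.1, 76.9 and 70.8 CPM (log2 fold change -0.76, SE 0.0625, edgeR adjusted p = 3.3e-08). It fell by 41.1%, the largest fall among the 39 genes, and has the site shown above in a 3' UTR of 213 bases.

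Beside the ATPases, the base of the cap holds Psmd1 and Psmd2, its large scaffold subunits, and Psmd4, a ubiquitin receptor. Psmd4 (ENSMUSG00000005625, chr3:95032694-95042614, minus strand) had 145, 153 and 149 CPM in NC libraries and 209, 212 and 210.2 CPM in miR-497 libraries (log2 fold change 0.50, SE 0.0498, edgeR adjusted p = 3.6e-07), with tight and separate groups. Psmd1 (ENSMUSG00000026229) rose from 492, 496 and 535 to 603, 599.9 and 563 CPM (log2 fold change 0.21, SE 0.0558, edgeR adjusted p = 0.0044). A 305-base stretch of Psmd1 is identical in the annotated gene Gm21972, which held 809 to 1165 counts, or 5.99% of the mean count of Psmd1. Psmd2 did not pass the test (log2 fold change 0.037, SE 0.056, edgeR adjusted p = 0.61), and its values overlapped. Adrm1, another ubiquitin receptor of the base that the naming rule leaves out, rose from 143, 155 and 147 to 253, 249 and 271 CPM (log2 fold change 0.80, SE 0.055, edgeR adjusted p = 4.3e-09).

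**Figure D2:**
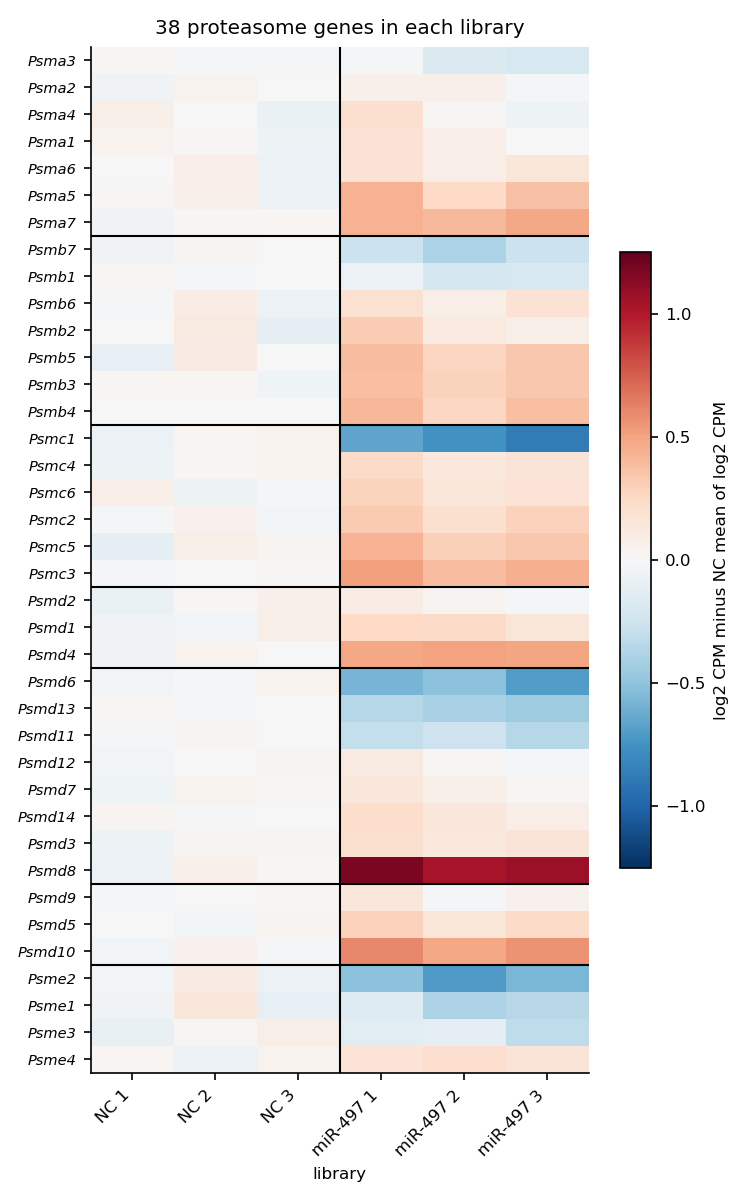
Colour shows log2 CPM minus the NC mean for 38 genes (rows, by place in the particle) in the 6 libraries (columns); Psma8 is left out for its low counts. The 3 miR-497 columns look alike, with Psmd8 at the red end and Psmc1 at the blue end.

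Over the whole cap, 10 of 17 genes rose (58.8%) and 4 fell (23.5%), and summed expression was 11.1% higher. The lid, the part of the cap that holds the deubiquitinase Psmd14, was split, with 3 genes higher, 3 lower and 2 not called. That is 37.5% each way, where 23.8% of all genes tested were higher and 26.0% lower. Psmd8 (ENSMUSG00000030591, chr7:29174188-29180701, minus strand), the subunit that completes assembly of the lid, had 102, 112 and 109 CPM in NC libraries and 243, 219 and 225 CPM in miR-497 libraries (log2 fold change 1.09, SE 0.0574, edgeR adjusted p = 1.7e-10). That is a rise of 113%, the largest among the 39 genes, and the lowest miR-497 value was far above the highest NC value. Psmd6 (ENSMUSG00000021737, chr14:14112174-14120984, minus strand), a structural subunit, fell from 122, 124 and 129 to 83.7, 87.5 and 76.9 CPM (log2 fold change -0.60, SE 0.0589, edgeR adjusted p = 3e-07), again with no overlap. Psmd13 (ENSMUSG00000025487), another structural subunit, fell from 141, 136 and 139.6 to 108, 105 and 102 CPM (log2 fold change -0.40, SE 0.0507, edgeR adjusted p = 4.7e-06), and 10.1% of its exon bases lie under a gene on the other strand. Psmd11 (ENSMUSG00000017428), which helps to join the lid to the core, fell from 231, 239.9 and 233 to 192, 197 and 183 CPM (log2 fold change -0.30, SE 0.051, edgeR adjusted p = 0.0001). The miR-497 values of both lay below all NC values. Within the same lid, Psmd8 thus passed 2-fold, while Psmd11 fell by 18.9% and Psmd6 fell by 33.8%. Psmd3 (log2 fold change 0.17, SE 0.0528, edgeR adjusted p = 0.014) and Psmd14 (log2 fold change 0.15, SE 0.0527, edgeR adjusted p = 0.029) rose slightly, but Psmd3 had an adjusted p of 0.082 without NC library 1 and 0.0503 without NC library 2. Psmd14 lost its call without NC library 2 (0.13), miR-497 library 1 (0.13) or miR-497 library 2 (0.058). Psmd7, the partner of Psmd14, and Psmd12, a structural subunit, were not called, at 0.076 and 0.039.

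Among the chaperones that guide assembly of the cap's base, Psmd10, known as gankyrin, had 25.6, 27.3 and 25.9 CPM in NC libraries and 39.7, 36.7 and 38.6 CPM in miR-497 libraries (log2 fold change 0.54, SE 0.0707, edgeR adjusted p = 6.5e-06). Psmd5 had 105, 102 and 107 CPM in NC and 128, 116 and 124 CPM in miR-497 libraries (log2 fold change 0.23, SE 0.0547, edgeR adjusted p = 0.0023). Both rose with separate groups, whereas Psmd9 was not called (log2 fold change 0.059, SE 0.0706, edgeR adjusted p = 0.52) and has 25.5% of its exon bases under a gene on the other strand. Psmg4, which pairs with Psmg3 in assembly of the alpha ring, rose from 46.8, 40.6 and 42.8 to 72.7, 83.6 and 80.3 CPM (log2 fold change 0.86, SE 0.0732, edgeR adjusted p = 5e-08). Of the 14 further subunits, assembly factors and inhibitors outside the naming rule, 2 rose (Adrm1 and Psmg4), 2 fell (Usp14 and Uchl5, the deubiquitinases that bind the cap, at -0.41 and -0.36) and 10 were not called. That is 14.3% each way, below the 23.8% higher and 26.0% lower over all genes tested. Usp14 has 26.0% of its exon bases under a gene on the other strand.

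Of the 4 alternative activators, 3 fell and Psme4 rose, and their summed expression dropped by 9.44%. Psme1 and Psme2 encode the 2 chains of an activator, PA28, that interferon induces and that favours peptides for MHC class I. Psme2 (ENSMUSG00000079197, chr14:55587441-55591113, minus strand) fell from 92.6, 102 and 90.3 to 66.2, 58.1 and 63.8 CPM (log2 fold change -0.60, SE 0.0671, edgeR adjusted p = 1.3e-06), and Psme1 (ENSMUSG00000022216) fell from 91.4, 104 and 87.8 to 84.3, 72.2 and 73.8 CPM (log2 fold change -0.30, SE 0.0739, edgeR adjusted p = 0.0027). The groups were separate in both. Psme2b, 99.4% identical to Psme2 over 794 bases, was at 0 counts in every library. Psme3 (ENSMUSG00000078652), a nuclear activator, went from 246, 264 and 276 to 237, 240.4 and 209.8 CPM (log2 fold change -0.19, SE 0.0621, edgeR adjusted p = 0.016); its adjusted p was 0.069 without NC library 2, 0.091 without NC library 3 and 0.085 without miR-497 library 3. Psme4, an activator that acts in the nucleus on histones, rose from 179, 168 and 182 to 198, 205 and 197 CPM (log2 fold change 0.18, SE 0.052, edgeR adjusted p = 0.0084), with an adjusted p of 0.095 without NC library 2. The interferon-inducible catalytic subunits that PA28 is made with also fell. Psmb8, which replaces Psmb5, had 42.0, 41.1 and 32.6 CPM in NC and 14.8, 13.1 and 13.8 CPM with miR-497 (log2 fold change -1.47, SE 0.0999, edgeR adjusted p = 3.4e-09). Of the exon bases of Psmb8, 14.7% lie under a gene on the other strand. Psmb9, which replaces Psmb6, had 9.38, 9.37 and 6.54 CPM in NC and 2.86, 3.97 and 4.53 CPM with miR-497 (log2 fold change -1.15, SE 0.196, edgeR adjusted p = 0.00011), and Psmb10, which replaces Psmb7, was listed at 0 counts in all libraries. Whether these changes differ from those of Psme1 and Psme2 was not tested.

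**Figure D3:**
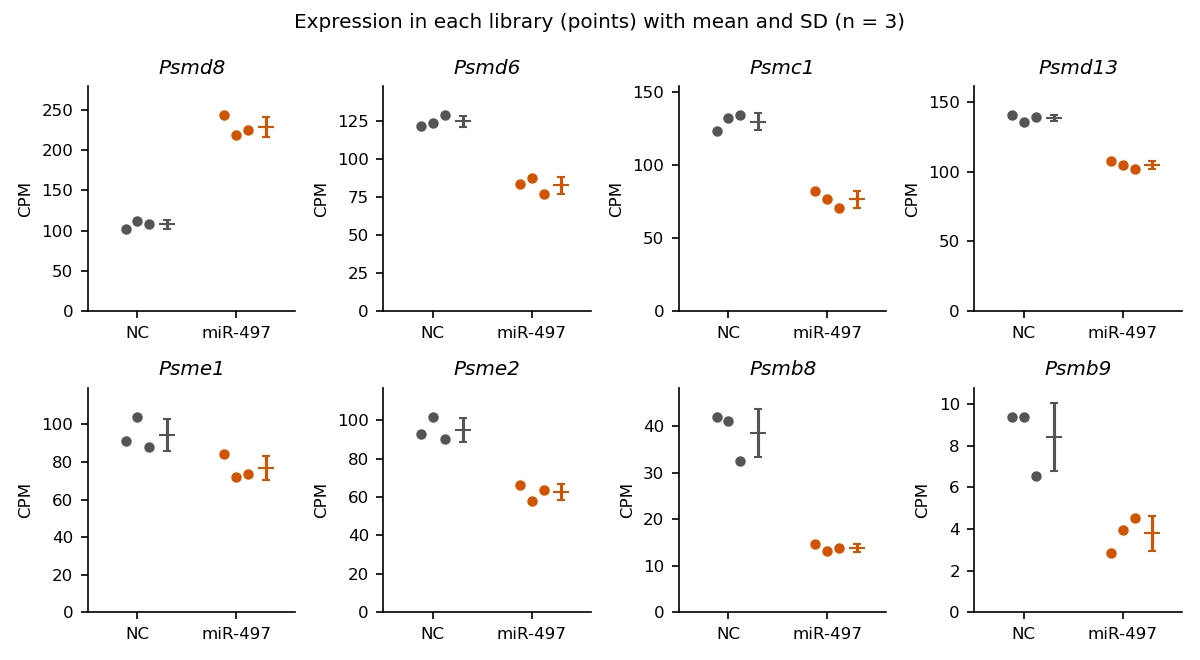
CPM in each library (points, y axes from 0) with the group mean and SD (n = 3). Shown are 6 genes of the naming rule and the interferon-inducible catalytic genes Psmb8 and Psmb9. The 6 include Psme1 and Psme2, whose product PA28 is also induced by interferon. In each panel the 3 miR-497 points lie wholly on one side of the 3 NC points, above for Psmd8 and below for the other 7. The genes shown are a selection and do not stand for the family. Of the 39 tested proteasome genes, 19 lay wholly above and 10 wholly below, where 27.8% and 29.6% of all genes tested did.

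Sites for the miR-497 guide strand were then set beside the direction of change. In the longest annotated 3' UTR, 5 of the 39 tested genes (12.8%) held a 7mer TGCTGCT and none held an 8mer. The rule used for all genes was wider. It took any 7mer or 8mer site, including 7mers that lack the match to the last seed base and end in an A. By this rule 28.1% of the 12854 tested genes with an annotated 3' UTR held a site, and the proteasome genes with a site were the same 5. The shares of all tested genes given below rest on the wider rule. Proteasome genes have short 3' UTRs, with a median of 296 bases against 1187. All 5 genes with a site were lower (log2 fold changes from -0.76 to -0.17), where 41.0% of all tested genes with a site were. Of the 34 genes without a site, 20 were higher and 4 lower, where 28.3% and 23.5% of all tested genes without a site were. The 4 lower genes without a site were Psmd6, Psmb7, Psme1 and Psme2. Psmc1 and Psme3 keep the site in the shortest annotated 3' UTR, but Psmd11, Psmd13 and Psmb1 lose it there, and which isoform ADC106 cells use is not known from gene counts. In coding sequence, a search added after the results were seen, 6 of 39 genes (15.4%) had a word of the wider rule against 37.8% of all tested genes. The median coding length of the 39 was 792 bases against 1323. Psmd6 had 2 and Psmb1 had 1, as did Psmc3, Psmc6 and Psmd7, while Psme4 had 2, and these last 4 were not lower. Only the transcript with the longest 3' UTR was searched, and its coding part may be incomplete. It held 419 bases for Psmd2 and 619 for Psmd13, so words may be missed and the shares too low. A match is a description of letters, and repression through these words was not tested.

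**Figure D4:**
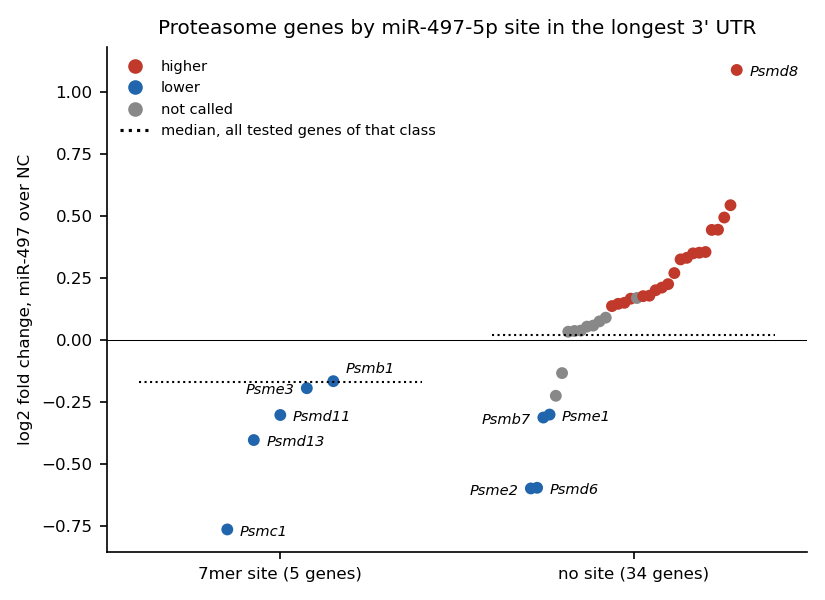
Log2 fold change (y axis) of the 39 tested genes with and without a 7mer site in the longest 3' UTR; dotted lines mark the medians of all tested genes of each class, -0.17 and 0.022. All 5 genes with a site lie below 0, and Psmd6, Psme2, Psmb7 and Psme1 are the lower genes without one.

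Promoters were searched for 3 words that known regulators of these genes bind. The RefSeq table (GRCm38.p6, from 250 bases before to 50 after the start) held 33 of the 40 genes. The core of the antioxidant response element, TGACNNNGC, to which Nfe2l1 and Nfe2l2 bind with small Maf proteins, was found on either strand in 6 of 33 genes (18.2%) and in 14.0% of 27025 genes. The 6 were Psmb5, Psmb6, Psmc6, Psmd9, Psmd12 and Psme4, of which 4 rose and Psmd9 and Psmd12 were not called. Of all 39 tested proteasome genes, 51.3% rose, and the share that rose among all genes with this word was not computed. Psmb6, Psmc6 and Psme4 each lost the call with at least 1 single library left out. The CCAAT word was in 39.4% and 41.1%, and the interferon response core GAAANNGAA in 18.2% and 9.76%. These shares depended on the strand searched: on the gene's own strand alone they were 36.4% and 23.7% for CCAAT, 6.06% and 5.15% for the interferon core, and 9.09% and 7.29% for the antioxidant core. On either strand, the genes with the interferon core were Psmc2, Psmd9, Psmd4, Psmb3, Psmb4 and Psme1. It thus stood in genes that rose, in Psmd9, which was not called, and in Psme1, which fell. In this window it was not found in Psme2, or in the interferon-inducible Psmb8, Psmb9 and Psmb10. Psmb7 was not among the 33 genes. The antioxidant core is shown for the catalytic genes Psmb5 and Psmb6 and the interferon core for an opposed pair, capitals marking the core, each on the strand that carries it.
Psmb5, antioxidant core, chr14:54618034-54618042, minus strand: tgaagttgTGACGTCGCggcgttgc
Psmb6, antioxidant core, chr11:70525348-70525356, plus strand: aaagagagTGACGGAGCgctttacg
Psme1, interferon core, chr14:55578504-55578512, minus strand: cgggaaggGAAAGCGAAagcacagc
Psmb3, interferon core, chr11:97703272-97703280, minus strand: ggaaagcgGAAAGTGAAaagtcact

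The regulators of the family moved both ways. Nfe2l1 fell from 406, 430.4 and 455 CPM in NC to 378, 390.4 and 372 CPM in miR-497 libraries (log2 fold change -0.18, SE 0.0554, edgeR adjusted p = 0.012). Nfe2l2, which drives stress-response genes through the same element, rose from 176, 175 and 175 to 251, 242 and 237 CPM (log2 fold change 0.47, SE 0.0498, edgeR adjusted p = 6.3e-07). Vcp, the ATPase that pulls ubiquitylated proteins and Nfe2l1 itself from the endoplasmic reticulum, rose from 459, 474 and 511 to 722, 671 and 681 CPM (log2 fold change 0.52, SE 0.0575, edgeR adjusted p = 1e-06). Of the 11 regulators listed, 6 were higher (54.5%), 4 lower (36.4%) and 1 was not called. Over all genes tested, 23.8% were higher and 26.0% lower. Genes that supply and deliver ubiquitin were also mixed, with 3 of 13 higher (23.1%), 5 lower (38.5%) and 5 not called. Uba6, an enzyme that activates ubiquitin, fell from 62.6, 62.2 and 65.6 to 47.3, 43.8 and 42.0 CPM (log2 fold change -0.52, SE 0.0675, edgeR adjusted p = 7e-06), with separate groups.

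A complete particle holds the subunits of its core, and of each cap, in equal numbers, and their transcript levels were compared per length, as CPM per kilobase of annotated exon. Among the 14 tested core subunits other than Psma8, the level in NC libraries ran from 41.1 ± 1.29 for Psma2 to 173 ± 9.39 for Psma6 (SD, n = 3), a range of 4.20-fold around a median of 84.3. With miR-497 the range was 4.52-fold, with the same genes at its ends. Among the 17 cap subunits of the naming rule, NC levels ran from 35.2 ± 1.67 for Psmd8 to 184 ± 12.5 for Psmc5, or 5.22-fold. With miR-497, Psmd8 reached 75.0 ± 4.12, which is their median there, and Psmd6 was lowest at 29.5 ± 1.92, which widened the range to 7.96-fold. The lowest of these 17 genes in NC libraries was thus the one with the largest rise. The assembly chaperones were all lower per length than any of these 17, from 5.04 ± 0.086 for Psmd9 to 17.9 ± 0.607 for Psmd10 in NC libraries. Retained introns and long alternative 3' ends add to annotated length and lower these levels by an amount not known here.

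**Figure D5:**
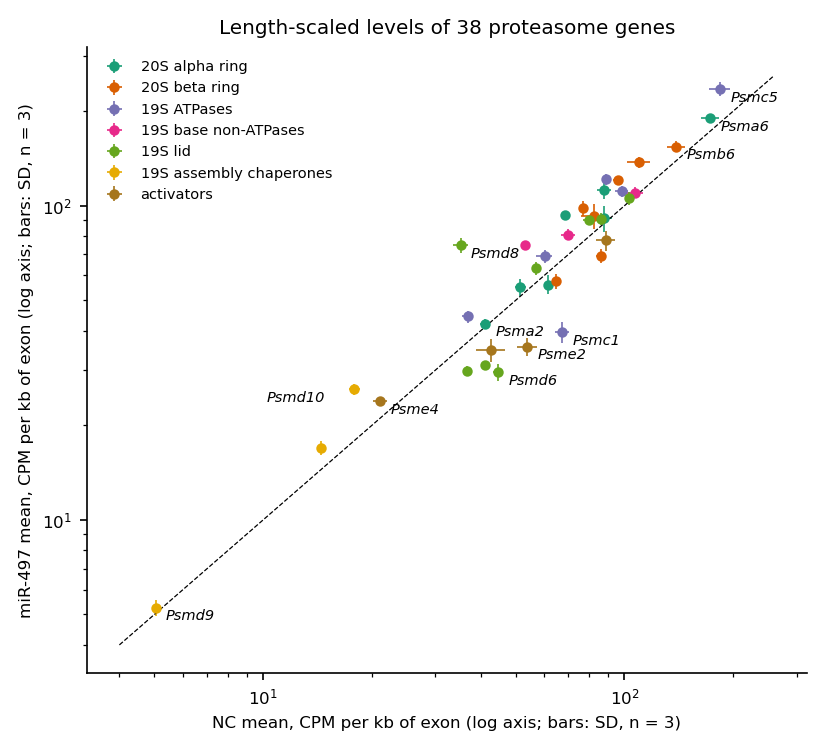
Mean CPM per kilobase of exon in NC (x axis) and miR-497 libraries (y axis), both on log axes with SD (n = 3), for 38 genes coloured by place in the particle; the dashed line marks equal levels. Psmd8 lies highest above the line, and Psmc1, Psmd6 and Psme2 lie below it.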

How the data were processed

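The authors deposited raw counts of reads per Ensembl gene for 6 poly(A) libraries, 3 per group, with totals of 25777676 to 36159499. STAR 2.5.4b, featureCounts, Subread 1.6.1, edgeR 3.32.1 and the build GRCm38 are named in the submitters' processing notes without roles. The annotation release, the strand setting and the handling of multiply aligned reads are not given in the sources used here. All library pairs differed by more than sampling noise (chi-square per degree of freedom at least 8.18).

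Symbols, exon lengths and 3' UTRs came from GENCODE M21, which matched 55141 of 55401 identifiers. Genes were filtered with filterByExpr (minimum count 10, minimum total 15), scaled by TMM and tested 2-sided across all genes with edgeR 4.0.16 (quasi-likelihood, group as the only term) in R 4.3.3. The standard error is the log2 fold change over the square root of F. Alternatives were other scalings and filters, DESeq2 1.42.0, voom of limma 3.58.1, GC and length offsets, the replicate number as a block, and leaving out each library. Copies were sought with blastn (at least 95% identity over 200 bases). Tables were made with Python 3.11.15. For each place in the particle the 3 called genes with the largest change have values in every library; genes of the other lists are named when called with a log2 change of at least 0.5, and others were named after their values were seen. Some genes and sequences that the rule names are not reported here. Members and lists were chosen with earlier results of these data known.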

Additional observations from a re-analysis of the deposited data

How the results depend on the processing

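Under the 15 alternatives to the edgeR fit, 16 to 23 of the 39 tested proteasome genes were higher and 7 to 10 lower, and their median log2 fold change ran from 0.11 to 0.19. Of the 584 pairs of gene and alternative, 536 kept direction and side of the threshold, 34 lost a call and 11 gained one. The sign turned in 3, all in genes not called either way: with single libraries left out, Psmd2 ran from -0.012 (without NC library 1) to 0.080, Psma4 from -0.022 (without miR-497 library 1) to 0.11 and Psmd12 from -0.00030 (without miR-497 library 1) to 0.067. No called gene changed sign. The calls of 13 higher genes (Psma5, Psma7, Psmb3, Psmb4, Psmb5, Psmc2, Psmc3, Psmc5, Psmd1, Psmd4, Psmd5, Psmd8 and Psmd10) and 7 lower genes (Psmb7, Psmc1, Psmd6, Psmd11, Psmd13, Psme1 and Psme2) held in every one. With single libraries left out, 16 to 19 genes were higher and 7 to 10 lower, with medians from 0.11 to 0.16. With upper quartile scaling, which gave 23 higher genes and a median of 0.19, Psma1, Psmb2 and Psmd7 became called as higher. That scaling moved the whole set of 14661 tested genes as well. Their median went from -0.019 to 0.028, with 3998 higher and 3422 lower against 3490 and 3817 in the main fit.

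In the fit with a replicate block, 16 proteasome genes passed upward and 9 downward, with a median of 0.15; Psma6, Psmb6, Psmd3 and Psmd14 lost their calls. Same-numbered libraries deviated from their group means with correlations of -0.12, -0.035 and -0.13, and nothing in the labels pairs them. The block with GC and length offsets gave 18 and 9, with a median of 0.11. The smallest change called was 0.14, for Psma6. With the shortest 3' UTR, 2 genes had a miR-497-5p site. Counting only 8mers left 0. On the forward strand alone, 3 genes had the antioxidant core. On unscaled library sizes the summed expression differed by 7.06%, against 8.29%.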
